A study of Mus musculus with 4 samples.

Results

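Genes for 10 proteins that act on gut bacteria were followed in RNA from mouse intestine: Reg3b, Reg3g, Reg4, Ang4, Retnlb, Lypd8, Lyz1, Lyz2, Lcn2 and Itln1. They were taken by name, and all 10 were found among the 55203 genes listed in each library, with 21 of the 141738 transcripts. The 4 libraries came from adult male wild-type C57BL/6NTac mice, aged 8 to 12 weeks and held under specific-pathogen-free (SPF) conditions. Of these, 2 carried the treatment label SPF, 4 mM RVC and 2 the label SPF, fresh frozen. RVC is ribonucleoside vanadyl complex, which inhibits ribonucleases. The one protocol text attached to all 4 describes an RVC rinse, so for the fresh-frozen tissue the handling is known from the label alone. The series set out to measure bulk expression for comparison with MERFISH imaging. The labels do not say whether the libraries came from separate animals, so p-values measure only the spread between these libraries. Each library had a batch number of its own, and batch and group cannot be told apart.

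Epithelial antimicrobial proteins are secreted or surface-bound products that kill bacteria, bind their surface or starve them of iron, and so keep the microbiota away from the epithelium. Reg3b and Reg3g are C-type lectins released by enterocytes and Paneth cells of the small intestine, and microbial signals that pass through MyD88 and interleukin-22 (IL-22) are known to raise them. Lypd8 coats flagellated bacteria in the colon. Ang4, Retnlb and Itln1 are products of Paneth or goblet cells, and Lyz1 and Lyz2 encode lysozymes of Paneth cells and of macrophages.

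The tissue label was ileum, whereas the protocol named distal colon, and genes of both segments were read in each library. Levels are given as deposited FPKM, that is, fragments counted per transcript length and library size, which allows comparison between genes. The colon gene Car1 lay between 1576 and 1781 FPKM, and the colon water channel gene Aqp8 between 641.7 and 1046. The other colon genes listed, Hoxb13 and Hoxd13, lay between 98.5 and 132.8 and between 5.68 and 39.5 FPKM. The ileal bile acid binding gene Fabp6 lay between 2.70 and 3.96, the ileal bile acid transporter gene Slc10a2 between 2.33 and 3.07, and Fgf15 and Apoa4 were listed at 0. In every library, each of the 4 colon genes thus lay above each of the 4 ileal genes. Of 8 Paneth cell genes, 7 stayed below 1 FPKM in every library, among them all 6 alpha-defensins examined and Mmp7, which was listed at 0. The exception was the pentraxin gene Mptx2, at 44.3 to 76.2 FPKM. Mptx1, of the same family, lay between 1145 and 2175 FPKM, and whether the pair shared reads was not tested. Relative depth, read from the ratio of coverage to FPKM, lay between 72.6% and 100% of that of fresh frozen 2, and between 14247 and 14573 genes reached 1 FPKM. The summed FPKM of 8 smooth muscle genes, led by Actg2, Acta2 and Cnn1, was 1154 and 1705 for RVC 1 and 2 and 719 and 770 for fresh frozen 1 and 2, all 8 being higher in RVC at an unadjusted p under 0.05 (limma, none after adjustment). The sum over 10 epithelial genes, led by Krt8, Krt19 and Epcam, was 5156, 4940, 5383 and 4124 in that order, with 0 of 10 at such a p. Of all 13771 genes tested, 18.4% had such a p in either direction.

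Mean levels over the 4 libraries ran in the order Lypd8, Reg4, Lyz2, Ang4, Lyz1, Retnlb, Lcn2, Itln1, Reg3g and Reg3b. Lypd8 alone gave between 97.2% and 98.6% of the summed FPKM of the 10 genes. The ranges of Lypd8, Reg4 and Lyz2 did not overlap one another. Ang4 overlapped Lyz1, Lyz1 overlapped Retnlb, and Retnlb overlapped Lcn2, so the order of these neighbours does not go beyond their spread. Itln1 lay below Lcn2 in every library, and Reg3g and Reg3b were at or near 0.

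**Figure D1:**
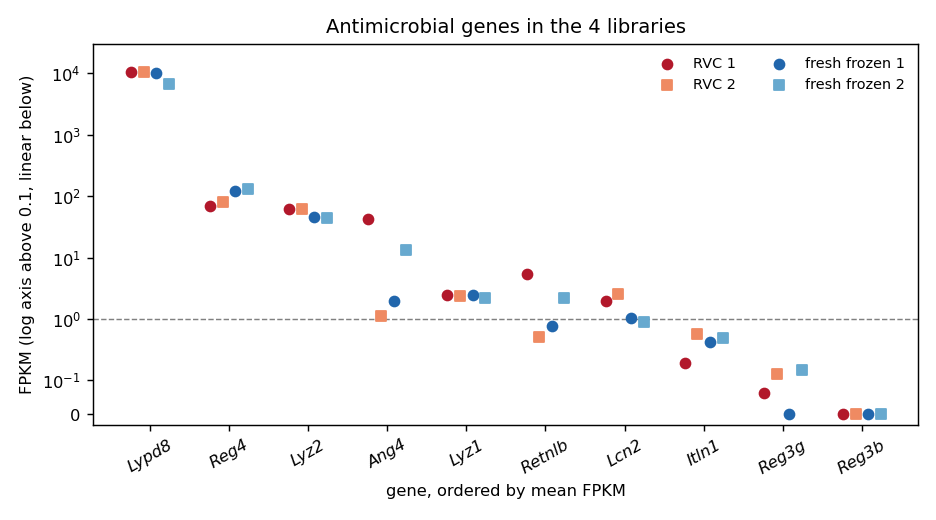
FPKM of each of the 10 genes in each library (points, 1 per library), with genes ordered by their mean. The axis is logarithmic above 0.1 and linear below, and the dashed line marks 1 FPKM. Lypd8 lies far above the rest, Ang4 and Retnlb spread widely, and Reg3b is listed at 0 in every library.

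Lypd8 was the most abundant of the 10. It encodes a GPI-anchored protein of the LY6/PLAUR family that binds flagella of Gram-negative bacteria, and it lies on chromosome 11 (58269869 to 58281554, GRCm39, ENSMUSG00000013643). Lypd8 measured 10405 and 10462 FPKM in RVC 1 and 2, and 10020 and 6743 in fresh frozen 1 and 2. The first 3 libraries were close together and fresh frozen 2 was the low one. By its mean, Lypd8 ranked 6 among 13771 genes tested. In bulk tissue, fewer cells of a type and less RNA per cell cannot be told apart. The summed epithelial genes were also lowest in fresh frozen 2, and their part in the low Lypd8 value was not tested. The ratio of Lypd8 to Epcam, a pan-epithelial adhesion gene, was 13.98, 13.4, 12.9 and 10.1 in the same order of libraries.

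Of the 2 Lypd8 transcripts, the shorter, ENSMUST00000013787 of 1093 nt, carried between 93.1% and 94.0% of the gene in every library. Lypd8l, a neighbouring relative on the same chromosome, measured 9.72 and 19.3 FPKM in RVC against 11.2 and 10.7 in fresh frozen. Coding sequences of the pair were identical at 58.8% of 634 aligned bases, with no identical run longer than 10 nt.

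Among the Reg lectins, Reg4 was well expressed and both Reg3 genes were not. Reg4 (ENSMUSG00000027876, chromosome 3, 98129472 to 98144064) encodes a secreted C-type lectin that marks deep crypt secretory cells of the colon. It measured 70.2 and 80.4 FPKM in RVC 1 and 2, and 122.6 and 131.0 in fresh frozen 1 and 2. The means were 75.3 ± 7.18 and 126.8 ± 5.96 FPKM (SD, n = 2 each). Both RVC libraries lay below both fresh-frozen libraries. The confidence bounds deposited with each value did not meet between groups. The highest upper bound in RVC was 84.1, and the lowest lower bound in fresh frozen was 117.8. Such bounds belong to the estimate in a single library and do not measure the spread between libraries. The secretory cell genes Agr2 and Spink4 were also lower in RVC without overlap, with log2 fold changes of -0.36 and -0.28 (limma adjusted p 0.244 and 0.383). They belong to a list of 7 goblet and deep crypt secretory genes, of which 4 were higher and 3 lower in RVC by sign. Tff3 went the other way (0.21, limma adjusted p 0.562), its groups being separate only after scaling. The part of these genes in the Reg4 values was not tested. With all 4 libraries, Reg4 was the only one of the 7 tested genes whose mean was lower in RVC, except under scaling to epithelial genes. That scaling also turned Lyz1, to a log2 difference of -0.035. Leaving out RVC 1 or fresh frozen 1 turned Ang4 and Retnlb as well.

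Reg3b (ENSMUSG00000071356, chromosome 6, 78347640 to 78350449), a bactericidal lectin, was listed at 0 for all 4 of its transcripts in every library. Reg3g (ENSMUSG00000030017, chromosome 6, 78443252 to 78445855), whose product binds peptidoglycan of Gram-positive bacteria, was listed at 0.0616 and 0.126 FPKM in RVC against 0 and 0.147 in fresh frozen. No Reg3g value had a lower confidence bound above 0, and the highest upper bound was 0.344. At this depth Reg3g was therefore not detected with confidence in any library. Coding sequences of Reg3b and Reg3g were identical at 76.4% of 525 bases with a longest identical run of 35 nt. Of the other Reg genes, Reg1, Reg3a and Reg3d were listed at 0 throughout, and Reg2 lay between 2.81 and 5.06 FPKM.

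Ang4 and Retnlb differed far more between single libraries than between groups. Ang4 (ENSMUSG00000060615, chromosome 14, 52001335 to 52011047) encodes a ribonuclease of the angiogenin family with bactericidal activity. It measured 41.8 and 1.12 FPKM in RVC 1 and 2, and 1.95 and 13.2 in fresh frozen 1 and 2. The highest and lowest values, 37.2-fold apart, were both RVC libraries, and the groups overlapped. No confidence bounds of 2 libraries met except those of RVC 2 and fresh frozen 1, which were 0.562 to 1.68 and 1.19 to 2.72.

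Retnlb (ENSMUSG00000022650, chromosome 16, 48637219 to 48639255) encodes resistin-like molecule beta, a cysteine-rich goblet cell protein that damages bacterial membranes. It measured 5.37 and 0.504 FPKM in RVC 1 and 2, and 0.770 and 2.19 in fresh frozen 1 and 2. The order of libraries was that of Ang4, with RVC 1 highest, then fresh frozen 2, fresh frozen 1 and RVC 2. The bounds of RVC 1, 4.13 to 6.61, lay above those of every other library, and the bounds of fresh frozen 2, 1.48 to 2.89, lay above both low libraries. Ang4 exceeded Retnlb by 7.78-fold and 2.23-fold for RVC 1 and 2, and by 2.54-fold and 6.03-fold for fresh frozen 1 and 2, so Ang4 spread more than Retnlb did.

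**Figure D2:**
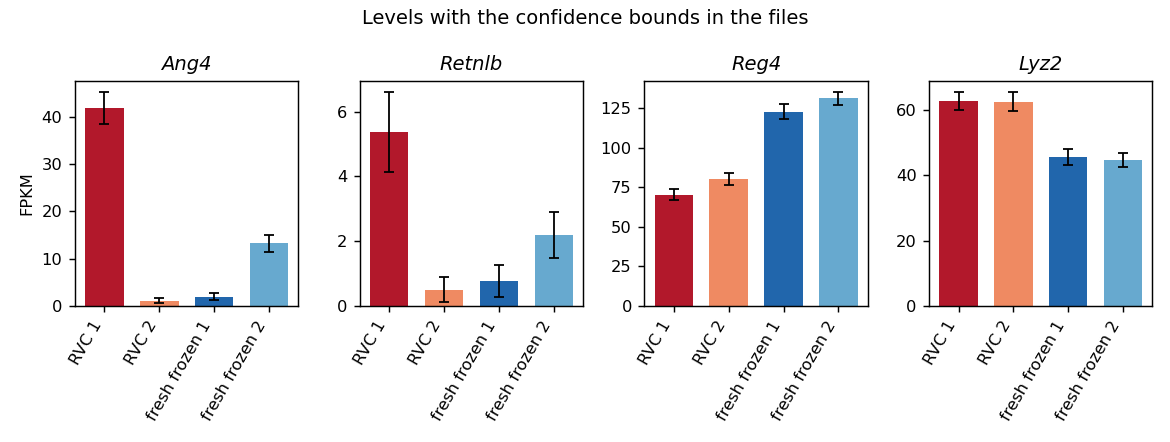
FPKM of Ang4, Retnlb, Reg4 and Lyz2 by library (bars), each gene having 1 transcript, with the confidence bounds given in the files as error bars. Ang4 and Retnlb are highest in RVC 1 and next in fresh frozen 2, whereas Reg4 and Lyz2 separate the RVC from the fresh-frozen libraries.

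On the scale log2(scaled FPKM + 1), Ang4 had a range of 4.34 over the 4 libraries, the 3rd widest among the 13771 genes. Retnlb had a range of 2.09, at place 73, and the median range of all genes was 0.37. The genes with patterns nearest to Ang4 were the immunoglobulin variable genes Ighv13-2, Igkv9-124 and Ighv2-2, at root mean square differences of 0.47, 0.64 and 0.64 between the 4 centred log2 values. Retnlb stood in place 9 among the 13770 genes compared with Ang4. Nearest to Retnlb were Igkv3-1, Igkv4-74 and Igkv12-98, at differences of 0.19, 0.24 and 0.24. With 4 libraries such nearness is only a description.

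**Figure D3:**
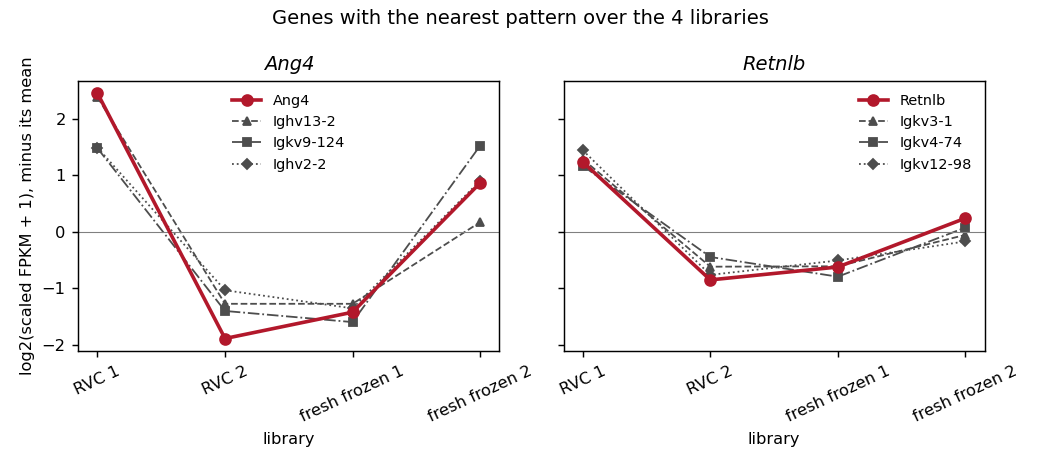
Centred log2(scaled FPKM + 1) by library for Ang4 (left) and Retnlb (right), in red, with the 3 nearest genes of each in grey. All plotted genes are above their mean in RVC 1 and below it in RVC 2 and fresh frozen 1, and they differ among themselves in fresh frozen 2.

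Markers of goblet cells did not move as one over these libraries. The summed FPKM of 7 goblet and deep crypt secretory genes was 17681 and 14272 in RVC 1 and 2, and 14674 and 16484 in fresh frozen 1 and 2. Among them Clca1, a secreted mucus component, measured 3665, 2385, 2591 and 3024 FPKM in that order. Tff3, a mucus trefoil peptide, measured 3273, 2575, 2581 and 2457 and was lowest in fresh frozen 2. Fcgbp, which encodes a mucus-binding protein, measured 989.4, 660.4, 642.7 and 969.8. It was highest in RVC 1 and fresh frozen 2, the libraries in which Ang4 was highest, as were Clca1, Zg16 and Muc2. Muc2, the main intestinal mucin gene, measured 176.4, 142.6, 138.9 and 301.9. Agr2, needed for mucin folding, and Spink4, a secreted protease inhibitor, ran otherwise and were lowest in RVC 1, at 517.7, 611.5, 709.4 and 741.5 for Agr2 and at 347.1, 464.8, 481.4 and 494.7 for Spink4. Zg16, a mucus lectin, measured 8713, 7433, 7530 and 8495. The part of these differences in the Ang4 and Retnlb values was not tested. The relatives of the pair did not share the pattern: Ang measured 8.03, 8.28, 9.28 and 11.8 FPKM, and Retnla 12.9, 7.92, 15.4 and 5.58. Coding sequences were identical at 85.5% of 435 bases between Ang4 and Ang, with a longest identical run of 31 nt, and at 74.8% of 318 bases between Retnlb and Retnla, with a longest run of 15 nt.

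Because Ang4 and Retnlb moved together over the libraries, the 250 bases before each start site are shown, as read from GRCm39 on the strand of the gene. The window of Ang4 is chr14:52011048-52011297 on the minus strand, and that of Retnlb is chr16:48636969-48637218 on the plus strand. Capitals mark matches to the motifs searched.
Ang4: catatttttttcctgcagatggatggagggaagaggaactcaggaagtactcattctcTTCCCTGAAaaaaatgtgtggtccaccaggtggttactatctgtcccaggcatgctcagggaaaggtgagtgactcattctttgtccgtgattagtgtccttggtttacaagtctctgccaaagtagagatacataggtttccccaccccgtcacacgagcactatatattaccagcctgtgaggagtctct
Retnlb: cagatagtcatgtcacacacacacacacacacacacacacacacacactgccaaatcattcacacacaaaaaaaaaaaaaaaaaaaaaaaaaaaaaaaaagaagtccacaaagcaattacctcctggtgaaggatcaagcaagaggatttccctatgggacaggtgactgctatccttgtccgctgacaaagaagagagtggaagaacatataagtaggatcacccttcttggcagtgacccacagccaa

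The motifs searched on both strands were TATAAA, the STAT motif TTCNNNGAA, the STAT6 motif (the same ends with 1 more base between them), and the E-box CAGCTG, and no match overlapped another in these 10 windows. Ang4 held TTCNNNGAA once, from base -192 to base -184, and the window of Retnlb held none of the 4. Across the 10 genes TTCNNNGAA occurred in 2 windows, those of Ang4 and Reg3b, against 6.17% of 13670 windows of genes tested. TATAAA occurred in 1 window (Reg3g), against 8.92% of windows. The STAT6 motif occurred in that of Lcn2 only, against 4.54%, and CAGCTG in that of Lypd8 only, against 11.8%. These matches describe letters, not binding.

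The 2 lysozymes stood far apart in level although their sequences are close. Lyz2 (ENSMUSG00000069516, chromosome 10, 117113236 to 117118226) encodes the lysozyme known from macrophages and other myeloid cells, an enzyme that cleaves peptidoglycan. It measured 62.8 and 62.6 FPKM in RVC 1 and 2, and 45.6 and 44.6 in fresh frozen 1 and 2. The 2 libraries of each group nearly coincided, and both RVC values were above both fresh-frozen values. Lyz1 (ENSMUSG00000069515, chromosome 10, 117123702 to 117128773), the Paneth cell lysozyme, measured 2.46 and 2.39 FPKM in RVC against 2.42 and 2.21 in fresh frozen. It was the steadiest of the 7 tested antimicrobial genes, with a range of 0.11 in log2(scaled FPKM + 1), a scale that understates changes at low levels. Lyz2 exceeded Lyz1 by 25.5-fold and 26.2-fold in RVC and by 18.9-fold and 20.2-fold in fresh frozen.

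Near-identical genes can share reads, so the coding sequences of the pair are shown where they are most alike. They were identical at 425 of 447 bases (95.1%), with a longest identical run of 118 nt. Of all windows of 150 nt, the length of a read, none had fewer than 2 differences, and the first such window covers coding bases 276 to 425. Capitals mark the differing bases, A394G and A399C, with the base of Lyz1 first and positions counted from the first base of the start codon.
Lyz1: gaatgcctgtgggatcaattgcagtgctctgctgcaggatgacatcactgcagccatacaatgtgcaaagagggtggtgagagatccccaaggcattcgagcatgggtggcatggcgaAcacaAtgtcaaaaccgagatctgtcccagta
Lyz2: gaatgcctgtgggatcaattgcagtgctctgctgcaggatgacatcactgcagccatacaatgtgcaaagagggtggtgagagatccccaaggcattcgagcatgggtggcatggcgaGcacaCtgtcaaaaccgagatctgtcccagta

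A read of 150 nt within the coding sequence therefore spans at least 2 differences, and only a shorter aligned stretch could hold none. Bases outside the coding sequence were not compared, so the extent of read sharing is not known. Any shared reads would weigh more on the low Lyz1 value. Of the 10 macrophage genes listed, the complement gene C1qa measured 15.6 and 15.7 FPKM in RVC against 11.5 and 7.88 in fresh frozen. The sum of the 10 was 68.9, 68.3, 53.8 and 45.9, so it was higher in the libraries in which Lyz2 was higher. Of 9 macrophage genes tested, 4 were higher at an unadjusted p under 0.05 and 0 after adjustment (limma). Among all genes tested, 18.4% had such an unadjusted p in either direction. The other leading macrophage genes, C1qb and C1qc, measured 11.4, 14.0, 10.7 and 8.11 FPKM and 12.0, 12.3, 9.16 and 5.30 FPKM. The part of the macrophage genes in the Lyz2 values was not tested.

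Lcn2 and Itln1 were at the low end. Lcn2 (ENSMUSG00000026822, chromosome 2, 32274645 to 32278264) encodes lipocalin 2, which binds bacterial siderophores and so withholds iron, and is released by neutrophils and inflamed epithelium. It measured 1.98 and 2.56 FPKM in RVC 1 and 2, and 1.05 and 0.882 in fresh frozen 1 and 2. The RVC values were the higher ones without overlap, and the transcript ENSMUST00000050785 carried at least 90.5% of the gene in each library. For that transcript, the lower bound of RVC 1, 1.34, lay under the upper bound of fresh frozen 1, 1.45, so the depth leaves these values imprecise. Neutrophil genes were scarcely present: Mpo and Elane were listed at 0 in all libraries and 9 of 10 listed genes stayed below 1 FPKM. The other, Ly6g, measured 287.0 and 332.8 FPKM in RVC against 251.8 and 169.6 in fresh frozen, higher in RVC without overlap, as Lcn2 was (log2 fold change 0.58, limma adjusted p 0.192). The next genes of the list by mean, Cxcr2 and Csf3r, reached at most 0.321 and 0.168 FPKM. Ly6g thus stood apart from the other 9 listed genes and is not read here as a measure of neutrophils. The source of Ly6g and its part in the Lcn2 values were not tested.

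Itln1 (ENSMUSG00000038209, chromosome 1, 171345690 to 171362862) encodes intelectin 1, a lectin that binds sugars found on microbes. It measured 0.189 and 0.567 FPKM in RVC against 0.416 and 0.485 in fresh frozen, below 1 in every library. The RVC values enclosed the fresh-frozen ones, so the groups overlapped.

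RVC and fresh-frozen libraries were then compared gene by gene with limma, a moderated linear model over all genes, on log2(scaled FPKM + 1). Of the 10 genes, 7 passed the filter of a mean of 1 FPKM, and Reg3b, Reg3g and Itln1 did not. None of the 7 passed an adjusted p of 0.05 (0 of 7), where 0.0363% of the 13771 genes did. At an unadjusted p under 0.05 there were 3 of 7, Reg4, Lyz2 and Lcn2, where all genes gave 18.4%. The groups did not overlap for 5 of 7, against 53.2% of all genes. One of these, Lyz1, was separated only after scaling and overlapped on deposited FPKM. The 5-of-7 share is near that of all genes, and 3 of 7 rests on few genes. An exact permutation test was not run, since 2 against 2 cannot go below a two-sided p of 0.333.

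Reg4 fell short of the adjusted threshold with the lowest p of the set. Its log2 fold change was -0.74 (SE 0.117, limma adjusted p 0.112), from scaled means of 75.3 in RVC and 126.5 in fresh frozen. Lyz2 had a log2 fold change of 0.47 (95% interval 0.23 to 0.71, limma adjusted p 0.129), from scaled means of 62.7 and 45.0. Lcn2 had 0.73 (SE 0.162, limma adjusted p 0.130), from 2.27 and 0.962, on a scale that understates changes near 1 FPKM, and the value was 1.15 with a pseudocount of 0.1. Lypd8 had 0.35 with a 95% interval of -0.27 to 0.97, and this value was 0.075 without fresh frozen 2 and 0.62 without fresh frozen 1. Lyz1 had 0.05 with an interval of -0.27 to 0.38, its sign turning with scaling to epithelial genes. The intervals of Ang4, -2.49 to 3.61, and of Retnlb, -1.05 to 1.82, were the widest. For both, leaving out RVC 1 turned the direction, from 0.56 to -1.61 for Ang4 and from 0.38 to -0.66 for Retnlb, and leaving out fresh frozen 1 gave -0.58 and -0.048.

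For 4 of the 7 genes, Ang4, Retnlb, Lypd8 and Lyz1, the larger gap within a group exceeded the difference between groups. The same held for 60.6% of all genes tested. The gap between the RVC libraries was 4.34 for Ang4 and 2.09 for Retnlb on the log2 scale, whereas for Lypd8 the wider gap, 0.54, was between the fresh-frozen libraries. For Lyz2 the larger gap was 0.012, far under its group difference.

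**Figure D4:**
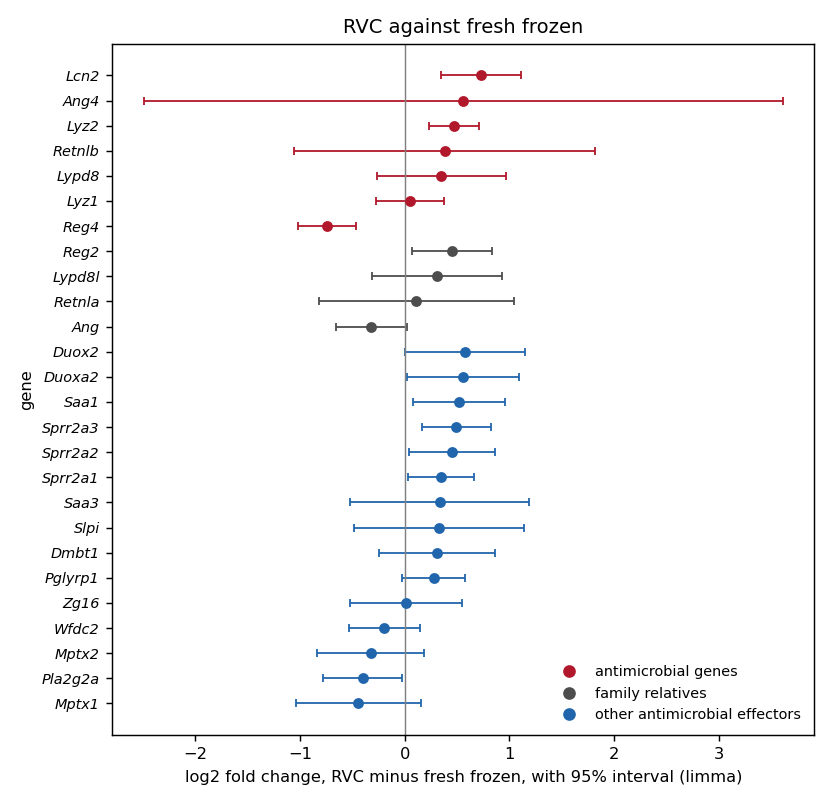
Log2 fold change of RVC over fresh frozen (points) with 95% intervals from limma (bars), for the 7 tested antimicrobial genes in red, 4 tested family relatives in grey and 15 other tested antimicrobial effectors in blue. Ang4 has by far the widest interval, and none of the plotted genes passed the adjusted threshold.

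Other genes of antimicrobial defence were read from 4 lists with 70 names, of which 39 were tested. None passed the adjusted threshold with limma (0 of 39), and 13 had an unadjusted p under 0.05, of which 9 were higher and 4 lower with RVC, where 18.4% of all genes had such a p (1292 higher and 1238 lower). Their median log2 fold change was 0.16, against 0.0066 over all genes tested. Among effectors the most abundant were Zg16, then the acute phase gene Saa1, at 3649 and 3881 FPKM in RVC against 2955 and 2353 in fresh frozen. Sprr2a2, of a family whose member SPRR2A is bactericidal, measured 3014 and 3270 in RVC against 2519 and 2111 in fresh frozen, although Sprr2a1, Sprr2a2 and Sprr2a3 are near-identical copies that can share reads. Effectors outside the 10 genes were thus abundant in the libraries in which Reg3b and Reg3g were not. Among the 15 effectors tested, 7 had an unadjusted p under 0.05, with 6 of them higher with RVC, again beside 18.4% of all genes. These 7 include the copies Sprr2a1, Sprr2a2 and Sprr2a3, and also Duox2 and Duoxa2, which lie side by side on chromosome 2. Neither the 7 nor the 13 above are therefore separate observations. Among 4 family relatives tested, 1 had such a p, Reg2, higher with RVC.

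Of 21 genes that sense microbes or belong to IL-22 control, 13 reached 1 FPKM in every library and 6 stayed below 1 in all. The bacterial sensors Tlr9 and Nod2 were among the latter, at no more than 0.208 and 0.236 FPKM, and Tlr5, the flagellin receptor gene, lay between 0.711 and 1.17. Chains of cytokine receptors were more abundant. Il22ra1, the epithelial IL-22 receptor chain, measured 31.0 and 27.1 FPKM in RVC against 22.5 and 19.1 in fresh frozen, with a limma adjusted p of 0.156. Il10rb, its partner chain, lay between 39.4 and 48.9 FPKM, and Il17rc, a chain of the interleukin-17 receptor, between 38.4 and 45.8. The cytokine genes Il22 and Il17a were listed at 0 in all libraries. Il18, which encodes an epithelial cytokine, measured 100.8 and 110.5 in RVC against 129.8 and 133.3 in fresh frozen, with a limma adjusted p of 0.212. Among 13 tested genes of this list, 4 had an unadjusted p under 0.05 (limma), 2 in each direction, beside 18.4% of all genes.

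Genes of type 2 signalling and of the secretory lineage showed no member past the adjusted threshold among 7 tested (limma, 0 of 7). An unadjusted p under 0.05 was found for 1 of the 7, beside 18.4% of all genes. That gene, Il13ra1, a receptor chain for the cytokine known to raise Retnlb, measured 39.2 and 40.0 FPKM in RVC against 48.2 and 55.1 in fresh frozen (limma adjusted p 0.188). Il13 was listed at 0 in every library. Atoh1, the master regulator of secretory cells, measured 22.8 and 19.2 FPKM in RVC against 17.7 and 21.8 in fresh frozen, and the groups overlapped. Creb3l1 lay between 20.2 and 27.7.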

How the data were processed

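Values were deposited by the authors as FPKM per transcript, made with TopHat2 2.1.1 and Cufflinks 2.2.1 on GRCm39 per the submitters' processing notes. Annotation release, strand use and read filters are not given in the sources used here. The deposited files also hold confidence bounds in FPKM, transcript length and coverage, a signal of reads per base per the file headers. Reads between overlapping or similar transcripts are divided by likelihood, so low values are uncertain, and numbers of fragments are unknown.

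Gene FPKM was the sum over transcripts, joined by transcript identifier. Libraries were scaled by median ratio (factors 0.992 to 1.01), and log2(scaled FPKM + 1) was fitted with limma 3.58.1 in R 4.3.3 (lmFit, eBayes with trend, two-sided, Benjamini-Hochberg over 13771 genes, threshold 0.05). A gene was tested at a mean scaled FPKM of at least 1, a longest transcript of at least 300 nt and status OK throughout. Counts were not available, so no count model was used. Strand and coding sequence came from GENCODE vM39, which held all 21 transcripts, 12 with the same ends. Promoter windows were taken at the start sites of the files for the most abundant transcript (for Reg3b, the longest). Sequences were aligned with Biopython 1.88.

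The 10 genes and all lists were chosen with earlier results of these data known. Named genes were the 10, the 3 most abundant of each list and any past the threshold, and, for genes with a log2 range of at least 1, the 3 nearest patterns, predicted genes passed over. Any further gene was picked with its values in view. Alternatives covered the pseudocount, scaling, filters, summing, block, trend and each library left out.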

Additional observations from a re-analysis of the deposited data

How the results depend on the processing

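All 7 tested antimicrobial genes stayed above the adjusted threshold of 0.05 with limma under 15 of the 16 alternatives set at the start, wherever they were tested. The exception was the sample number as a replicate block, which called 1 of the 7, Reg4, at an adjusted p of 0.0402. Over its 16 alternatives the adjusted p of Reg4 ran from 0.0402 to 0.402, and its log2 fold change from -0.87 to -0.65. The related genes stayed at 0 calls throughout. The count of all genes called, 5, changed to 112 with the replicate block, to 16 with scaling to the epithelial list, to 2 with a mean of at least 5 and with the most abundant transcript, and to 0 without a filter on low values, without transcripts under 300 nt or without a trend. With 1 library left out it ran from 8 to 37, and the lone library of a group was then assumed to vary like the others. Deviations of same-numbered libraries from their group means correlated at -0.13 across genes. With 2 libraries per group both pairs must give the same value, so it cannot decide whether the numbers pair the libraries. With crossed numbers as the block, added after seeing the data, 12 genes were called, 0 of them among the 7. The cause of these changes was not tested. Directions turned for 3 genes: Lyz1, to -0.035 with scaling to the epithelial list, which moves the median of all genes to -0.098, and Ang4 and Retnlb, which ran from -1.61 to 2.73 and from -0.66 to 1.43 with 1 library left out. Reg4, Lypd8, Lyz2 and Lcn2 did not turn under the alternatives in which they were tested, but sizes moved: Lypd8 ran from 0.075 (without fresh frozen 2) to 0.62, Lcn2 from 0.60 to 1.15 (pseudocount of 0.1) and Lyz2 from 0.35 to 0.49. Depth limits the low values, such as those of Reg3g, Itln1, Lcn2 and Retnlb.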
